A study of Arabidopsis thaliana with 12 samples.

Results

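*rps12* is a plastid gene for protein S12 of the small ribosomal subunit, and it lies in pieces at separate places of the chloroplast genome. Exon 1 stands between *clpP* and *rpl20*. Exons 2 and 3 stand with *rps7*, the gene of ribosomal protein S7, downstream of them. Each piece is transcribed as its own RNA. Intron 1, a group IIB intron, is split between these RNAs: its 5′ part follows exon 1, its 3′ part precedes exon 2, and the parts must pair before exons 1 and 2 can be joined in *trans*. Intron 2, a group IIA intron between exons 2 and 3, is spliced in *cis*. Maturase K (MatK), encoded in the *trnK* intron, is known as a splicing factor of plastid group IIA introns, and MKIP1 was studied as its partner protein.

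RNA was sequenced from anti-YFP precipitates and from the inputs of 10-day-old Arabidopsis seedlings. *At*MKIP1-YFP, under the *UBQ10* promoter, was expressed in the homozygous *mkip1-2* mutant. *At*BE3-YFP, a plastid starch branching enzyme with the same tag under the same promoter, was expressed in Col-0, which keeps its own *At*MKIP1, so that the lines differ in background as well as in bait. Both lines were grown on Basta, and each bait was sampled as 3 pools of about 10 g of seedlings, which gives 12 libraries. RNA of the bait genes themselves was not measured, since the tables hold chloroplast RNA only. The members are the minus-strand segments of the count tables that overlap nt 97478 to 99593 (*rps7*, *rps12* exon 3, intron 2, exon 2 and the 3′ part of intron 1, called the exon 2 and 3 locus here) or nt 69111 to 69746 (exon 1 and the 5′ part of intron 1, called the exon 1 locus). These were 17 of 555 segments of the precipitate table, 13 and 4 at these loci, and 4 of 574 segments of the input table, 3 and 1 at these loci.

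All coordinates are nt of the TAIR10 chloroplast genome (Pltd), and all parts are on the minus strand. Exon 1 spans 69611 to 69724 (114 nt), exon 2 spans 98562 to 98793 (232 nt), intron 2 spans 98025 to 98561 (537 nt), exon 3 spans 97999 to 98024 (26 nt) and *rps7* spans 97478 to 97945 (468 nt). The exon 2 and 3 locus lies in the inverted repeat, and its 2116 nt recur without a mismatch on the plus strand at 139056 to 141171, whereas the exon 1 locus has no such copy. RNA of both copies was therefore counted together at the exon 2 and 3 locus. The splice borders are shown to place the segments below, with exon bases in capitals and 20 nt of intron.
Pltd:69591-69630, exon 1 to intron 1: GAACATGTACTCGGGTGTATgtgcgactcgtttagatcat
Pltd:98774-98813, intron 1 to exon 2: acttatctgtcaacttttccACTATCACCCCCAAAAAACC
Pltd:98542-98581, exon 2 to intron 2: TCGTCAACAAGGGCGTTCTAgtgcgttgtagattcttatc
Pltd:97999-98044, intron 2 to exon 3: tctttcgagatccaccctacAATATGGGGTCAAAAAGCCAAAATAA
Both introns begin with gtgcg, as these lines show.

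The called segments shown next rest on mapped reads as library size, with which 72.3% of all 553 segments were higher. With TMM factors, another scaling, those called higher turned negative. The stretch of the 3′ part of intron 1 in which all segments were higher with *At*MKIP1-YFP spans 255 nt, from 303 to 49 nt upstream of exon 2. Its G and C share was 40.8%, against 35.6% for the 800 nt of intron 1 taken upstream of exon 2 and 36.3% for the chloroplast genome. It is shown 5′ to 3′, with the 3 nt of the segment that had the highest log2 fold change of all members in capitals.
Pltd:98842-99096, intron 1 upstream of exon 2: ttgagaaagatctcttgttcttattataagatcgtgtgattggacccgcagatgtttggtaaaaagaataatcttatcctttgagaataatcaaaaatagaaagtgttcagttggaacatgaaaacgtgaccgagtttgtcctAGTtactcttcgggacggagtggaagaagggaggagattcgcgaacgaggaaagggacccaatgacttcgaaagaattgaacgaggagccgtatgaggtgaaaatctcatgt
A segment of 3 nt in intron 2 was higher as well, and capitals mark it.
Pltd:98163-98205, intron 2: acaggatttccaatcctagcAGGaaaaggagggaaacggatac
Exon 1 is shown for the opposite sign, with the 68 nt inside the segment that holds most of it in capitals. Its G and C share was 48.2%.
Pltd:69611-69724, exon 1: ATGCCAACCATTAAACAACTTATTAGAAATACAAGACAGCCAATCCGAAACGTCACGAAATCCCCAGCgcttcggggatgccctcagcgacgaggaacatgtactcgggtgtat

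Mapped reads numbered 213384 to 319005 in the *At*MKIP1-YFP precipitates against 119799 to 257634 in the *At*BE3-YFP precipitates. The *At*MKIP1-YFP inputs held 2213500 to 2868106 and the *At*BE3-YFP inputs 2241732 to 2740959. Reads that reach over a border enter the count of every segment they touch, so that neighbouring segments share reads and their calls are not independent. Segment counts per mapped read ranged from 2.03 to 2.12 in the *At*MKIP1-YFP precipitates and from 1.23 to 1.28 in those of *At*BE3-YFP. Levels are given as rpm, the reads of a segment scaled to 1000000 mapped reads of the library, and a segment is called at an adjusted p under 0.01 in edgeR's quasi-likelihood test over all segments (Benjamini-Hochberg). Segment borders were set on the same bait contrast, which these p-values do not allow for.

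Exon 2 RNA and the intron RNA upstream of it were higher, relative to exon 1 RNA, in precipitates of *At*MKIP1-YFP than of *At*BE3-YFP. This comparison, between RNAs of separate transcription, was made within each library and so does not depend on how libraries are scaled. The log2 ratio of reads in the exon 2 segment (98665 to 98841, which holds 129 nt of exon 2 and 48 nt of intron 1) to reads in the exon 1 segment (69657 to 69743) was 1.08, 1.82 and 1.73 in the *At*MKIP1-YFP precipitates, against -0.252, 0.508 and -1.62 in those of *At*BE3-YFP. All *At*MKIP1-YFP libraries lay above all *At*BE3-YFP libraries. The difference of means was 2.00, or 3.99-fold, with an SD of 0.406 between *At*MKIP1-YFP libraries and 1.08 between *At*BE3-YFP libraries (n = 3 each; exact two-sided permutation test, p = 0.1, the smallest that 3 against 3 allows, and 0.2 adjusted over the 10 ratios computed).

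With the exon 1 segment of the same library as library size, 10 of the 13 segments of the exon 2 and 3 locus were higher with *At*MKIP1-YFP and 0 were lower (edgeR, and likewise 10 and 0 by DESeq2; 11 had an unadjusted p under 0.05). Of all 552 segments tested in this way, 74.5% were higher and 0 were lower, shares close to those of these members. The exon 1 segment itself ranked 523 of 553 by log2 fold change with mapped reads. That segment held 55, 53 and 43 reads with *At*MKIP1-YFP and 50, 71 and 89 reads with *At*BE3-YFP. The noise of these counts is common to all segments of a library, so that calls in this fit are not independent. It was seen in only 6 libraries, while the fit estimates spread from all segments, so p-values can be too small here. The median log2 difference was 2.29 over the 13 segments and 3.02 over all segments. The largest was 3.03 (SE 0.58, adjusted p = 3.8e-07 in edgeR's test) at the 3 nt from 98951 to 98953. The exon 2 segment itself was 1.79 higher (SE 0.51, adjusted p = 0.00066 in edgeR's test). The segment that holds *rps7*, exon 3 and the last 158 nt of intron 2 (97463 to 98182) did not pass, with 0.67 (SE 0.55, adjusted p = 0.28 in edgeR's test). The other members that did not pass were the segment of intron 2 and exon 2 at 98186 to 98664, with 1.05, and the 9492 nt segment of which 24 nt lie in the locus, with 0.44. Without single libraries the count ran from 8 to 11.

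**Figure D1:**
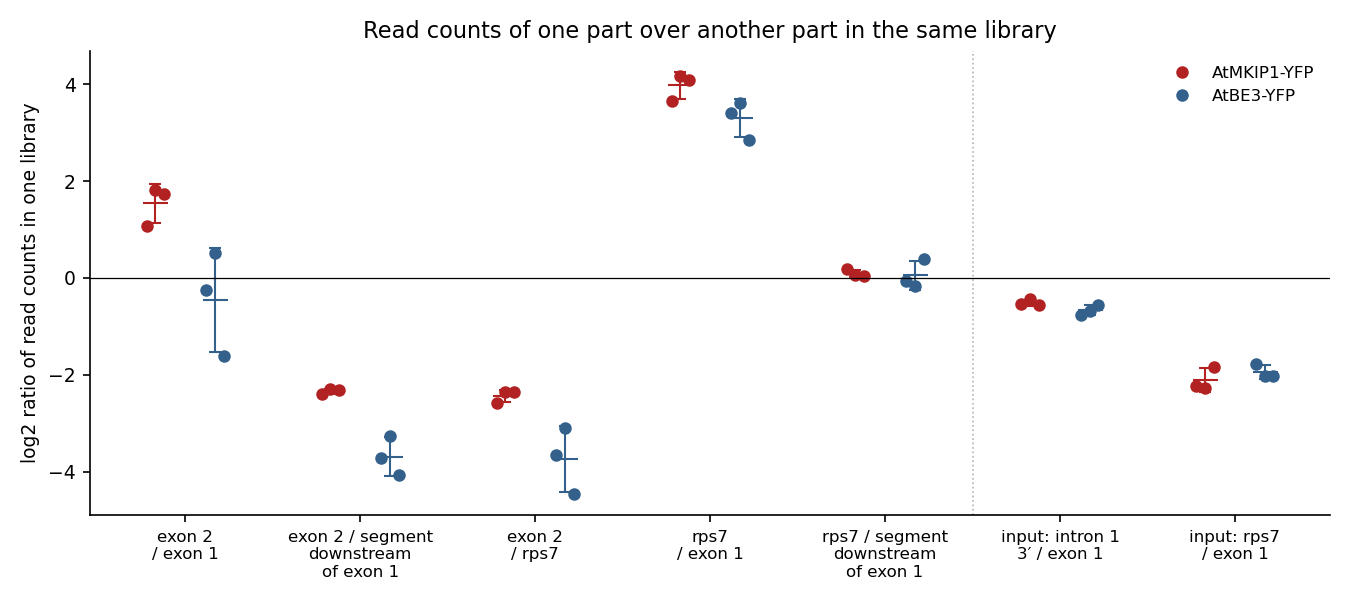
Log2 ratio of read counts in 2 segments of the same library, for *At*MKIP1-YFP and *At*BE3-YFP, with points for libraries and bars for the mean ± SD (n = 3 each). In the precipitates, exon 2 over exon 1 was 2.00 higher on the log2 scale with *At*MKIP1-YFP, whereas *rps7* over the long segment downstream of exon 1 differed by 0.042 and overlapped, as did the input ratios.

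For *rps7*, the baits did not overlap relative to the exon 1 segment but overlapped relative to the long segment downstream of exon 1. Its log2 ratio to the exon 1 segment was 3.66, 4.18 and 4.10 with *At*MKIP1-YFP and 3.41, 3.62 and 2.86 with *At*BE3-YFP, a difference of 0.683 without overlap (exact permutation test, p = 0.1, 0.2 adjusted; n = 3 each). The segment downstream of exon 1 (64579 to 69653), which holds 500 nt of the 5′ part of intron 1, 43 nt of exon 1 and the gene *rpl20*, is 5075 nt long, and 543 nt of it (10.7%) lie in the exon 1 locus. Against it, the log2 ratio of the exon 2 segment was -2.40, -2.30 and -2.32 with *At*MKIP1-YFP and -3.73, -3.27 and -4.08 with *At*BE3-YFP, a difference of 1.36 without overlap (exact permutation test, p = 0.1, 0.2 adjusted; n = 3 each). The ratio of the *rps7* segment to it was 0.181, 0.0613 and 0.0459 with *At*MKIP1-YFP and -0.0637, -0.162 and 0.388 with *At*BE3-YFP. These groups overlapped, with a difference of 0.042 (exact permutation test, p = 0.8, 0.8 adjusted; n = 3 each).

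The segments of the exon 2 and 3 locus were also set against the *rps7* segment of the same library, a choice made after the data were seen. With it as library size, 10 of the other 12 segments were higher with *At*MKIP1-YFP and 0 were lower (edgeR), where 74.5% of all 552 segments were higher, a share near that of these members. The median log2 difference was 1.79 over the 12 segments and 2.39 over all segments, and the *rps7* segment itself ranked 451 of 553 by log2 fold change with mapped reads. The same counts, 10 and 0, were obtained by DESeq2, and 10 had an unadjusted p under 0.05. The exon 2 segment was 1.19 higher relative to *rps7* (SE 0.30, adjusted p = 0.00036 in edgeR's test) and the segment at 98951 to 98953 was 2.39 higher (SE 0.38, adjusted p = 1.8e-07 in edgeR's test). The segment of intron 2 next to exon 2 (98186 to 98664, with 376 nt of intron 2 and 103 nt of exon 2) did not pass, with 0.44 (SE 0.29, adjusted p = 0.16 in edgeR's test). Of the 4 segments of the exon 1 locus, 2 were lower relative to *rps7*, where 5.25% of all 552 segments were lower. These were the segments at 69654 to 69656 with -1.22 (adjusted p = 0.00015 in edgeR's test) and at 69744 to 69746 with -1.52 (adjusted p = 0.00031 in edgeR's test). The exon 1 segment between these had -0.70 and did not pass (SE 0.28, adjusted p = 0.017 in edgeR's test). The segment at 69744 to 69746 passed the low-count filter through its *At*BE3-YFP libraries only.

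**Figure D2:**
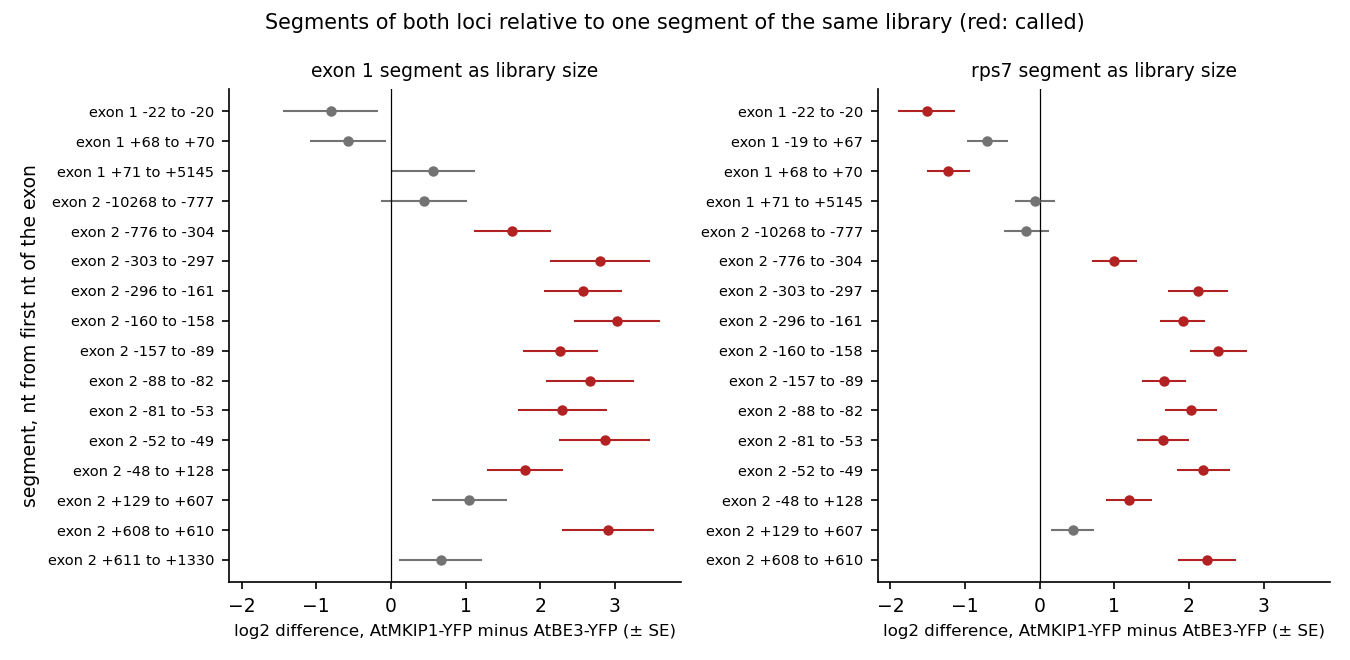
Log2 difference between baits (*At*MKIP1-YFP minus *At*BE3-YFP, ± SE) of each member segment in the precipitates, with the exon 1 segment (left) or the *rps7* segment (right) of the same library as library size. Labels give each segment's first and last nt counted from the first nt of the nearest exon 1 or 2, and called segments are red. The 10 called segments of the exon 2 and 3 locus lie to the right of 0 in both panels.

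In rpm, the called segments of the exon 2 and 3 locus were higher with *At*MKIP1-YFP and those of the exon 1 locus were lower. With mapped reads as library size, 9 of the 13 segments of the exon 2 and 3 locus were higher with *At*MKIP1-YFP, where 72.3% of all 553 segments were higher, a share near that of these members, and 0 were lower. At the exon 1 locus 0 of 4 were higher and 3 were lower, where 15.2% of all segments were lower. With TMM factors the 9 higher calls all turned negative and 0 were higher, and with no scaling the 3 lower calls were lost. The median log2 fold change of all segments was 2.06 with mapped reads and -0.08 with TMM factors, and that of the exon 2 and 3 locus was 1.33 and -0.81. With mapped reads 0 of the 17 members lay above the median of all segments, and the highest was that median itself, at rank 277 of 553. The members ranked 277 to 552.

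**Figure D3:**
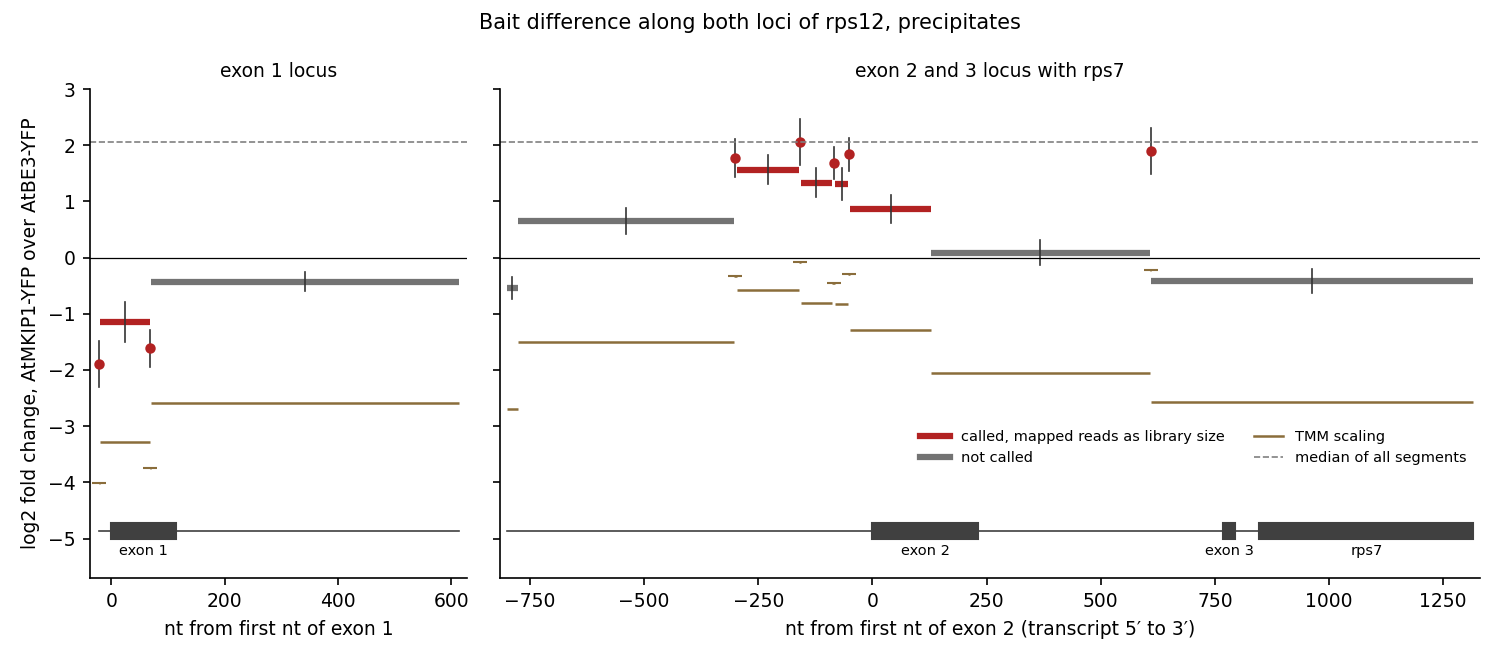
Log2 fold change of each member segment (*At*MKIP1-YFP over *At*BE3-YFP, precipitates) against its position from the first nt of exon 1 (left) and of exon 2 (right), with ± SE as vertical lines. Red segments were called and grey were not, with mapped reads as library size, and brown lines give the same segments with TMM factors. Long segments are drawn only within the stretches of the rule, boxes are exons and *rps7*, and the dashed line is the median of all segments, 2.06. Under both scalings the profile peaks upstream of exon 2 and is lowest at 69744 to 69746, just upstream of exon 1.

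In the 3′ part of intron 1, which ends at exon 2, the segment at 98951 to 98953 had 173, 154 and 194 rpm in the *At*MKIP1-YFP precipitates, against 18.7, 73.8 and 8.35 rpm in those of *At*BE3-YFP. These rest on 37, 49 and 52 reads with *At*MKIP1-YFP and on 3, 19 and 1 reads with *At*BE3-YFP. The groups did not overlap, and *At*BE3-YFP replicate 2 was the highest of its group. The log2 fold change was 2.06 (SE 0.41, adjusted p = 3e-04 in edgeR's test), and 3.55 without that library.

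The flanking segments were split from it by the borders and share reads with it. The 136 nt segment upstream (98954 to 99089) had 286, 273 and 317 rpm with *At*MKIP1-YFP and 68.5, 124 and 91.8 rpm with *At*BE3-YFP (log2 fold change 1.56, SE 0.26, adjusted p = 5.9e-05 in edgeR's test). The 69 nt segment downstream (98882 to 98950) had 417, 433 and 380 rpm with *At*MKIP1-YFP and 137, 213 and 117 rpm with *At*BE3-YFP (1.33, SE 0.26, adjusted p = 0.00023). Both were higher in all *At*MKIP1-YFP libraries than in any *At*BE3-YFP library.

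The other 4 segments of the 255 nt stretch were 4 to 29 nt long. At 99090 to 99096 there were 79.7, 78.4 and 74.6 rpm with *At*MKIP1-YFP and 12.5, 27.2 and 25.0 rpm with *At*BE3-YFP (log2 fold change 1.78, adjusted p = 0.00019 in edgeR's test). At 98875 to 98881 there were 141, 144 and 112 rpm with *At*MKIP1-YFP and 43.6, 42.7 and 33.4 rpm with *At*BE3-YFP (1.69, adjusted p = 6.8e-05). In both, the groups lay apart by more than their spread, on 2, 7 and 3 and on 7, 11 and 4 *At*BE3-YFP reads. At 98846 to 98874 there were 103, 122 and 93.2 rpm with *At*MKIP1-YFP and 49.8, 42.7 and 33.4 rpm with *At*BE3-YFP (1.31, adjusted p = 0.00065). At 98842 to 98845, nearest to exon 2, there were 117, 129 and 119 rpm with *At*MKIP1-YFP and 37.4, 27.2 and 41.7 rpm with *At*BE3-YFP (1.84, adjusted p = 3.9e-05). None of these groups overlapped. The segments at 98842 to 98845 and 99090 to 99096 passed the low-count filter through their *At*MKIP1-YFP libraries only. With no filter both stayed higher (adjusted p = 4.1e-05 and 0.0002 in edgeR's test). Fewer than 3 *At*BE3-YFP libraries reached the filter's minimum at 98846 to 98874, 98875 to 98881, 98951 to 98953 and 98183 to 98185. These segments thus also needed their *At*MKIP1-YFP libraries to pass, and they stayed higher with no filter.

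Farther upstream in intron 1 the difference was smaller. The 473 nt segment at 99097 to 99569 had 534, 649 and 586 rpm with *At*MKIP1-YFP and 312, 450 and 359 rpm with *At*BE3-YFP. It holds most of the 800 nt of intron 1 taken upstream of exon 2. It did not overlap between baits but missed the threshold (log2 fold change 0.65, SE 0.24, adjusted p = 0.018 in edgeR's test). It passed without *At*BE3-YFP replicate 2 (0.82, adjusted p = 0.0069 in edgeR's test) and with libraries scaled on segments outside the MatK-associated loci (1.26, adjusted p = 0.00017). The segment beyond it, with 24 nt in the locus, had 1182 to 1640 rpm with *At*MKIP1-YFP and 1944 to 2337 rpm with *At*BE3-YFP (-0.54, adjusted p = 0.014).

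Exon 2, which is joined to both other exons, had 544, 586 and 533 rpm in its main segment (98665 to 98841) in the *At*MKIP1-YFP precipitates, against 262, 392 and 242 rpm in those of *At*BE3-YFP. All *At*MKIP1-YFP libraries were higher. The log2 fold change was 0.86 (SE 0.25, adjusted p = 0.0043 in edgeR's test). It no longer passed when replicate 2 of *At*MKIP1-YFP (0.83, adjusted p = 0.026 in edgeR's test), its replicate 3 (0.89, 0.015) or replicate 1 of *At*BE3-YFP (0.76, 0.016) was left out. With TMM factors this segment was called lower instead (-1.28, adjusted p = 0.00023 in edgeR's test). It was also called lower with DESeq2's size factors (-1.10, adjusted p = 3.9e-05 in DESeq2's test).

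Of intron 2, the group IIA intron, a segment of 3 nt was higher with *At*MKIP1-YFP when mapped reads were the library size. At 98183 to 98185 there were 122, 135 and 93.2 rpm with *At*MKIP1-YFP and 6.23, 50.5 and 25.0 rpm with *At*BE3-YFP, from 26, 43 and 25 reads and from 1, 13 and 3 reads. The groups did not overlap, and the log2 fold change was 1.90 (SE 0.41, adjusted p = 0.00057 in edgeR's test; 2.98 without *At*BE3-YFP replicate 2). The segment that holds most of the intron (98186 to 98664) had 530, 495 and 477 rpm with *At*MKIP1-YFP and 417, 528 and 459 rpm with *At*BE3-YFP. These groups overlapped, with a log2 fold change of 0.09 (SE 0.22, adjusted p = 0.70 in edgeR's test). It passed as higher once scaling used segments outside the MatK-associated loci (0.70, adjusted p = 0.008 in edgeR's test).

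*rps7*, exon 3 and the 3′ end of intron 2 share the 720 nt segment at 97463 to 98182 and cannot be told apart. It had 3257, 3016 and 2742 rpm with *At*MKIP1-YFP and 3314, 3389 and 5376 rpm with *At*BE3-YFP. All *At*MKIP1-YFP libraries were lower, and *At*BE3-YFP replicate 3 stood above the rest. The difference did not pass (log2 fold change -0.42, SE 0.21, adjusted p = 0.069 in edgeR's test), but did with TMM factors (-2.57, adjusted p = 2.4e-07).

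**Figure D4:**
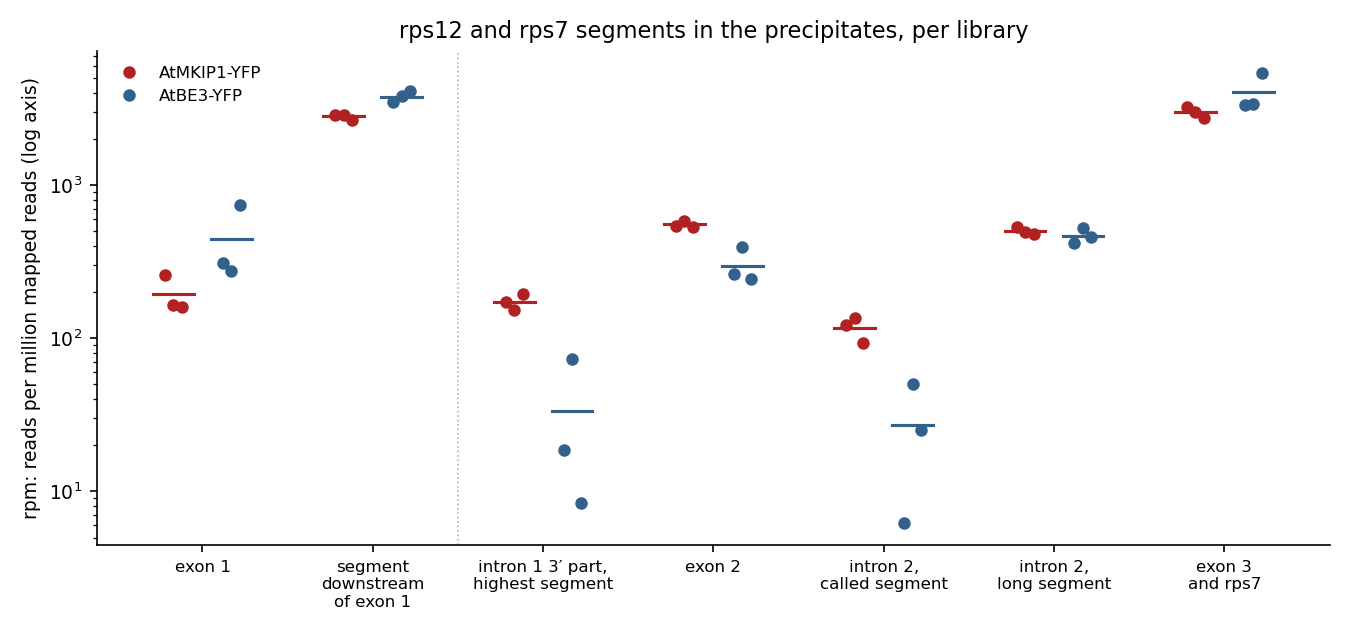
Level in rpm (log axis) in each precipitate library for the segment that holds most of each part, and for the called segments with the highest log2 fold change in intron 1 and in intron 2. Points are libraries, lines are means, *At*MKIP1-YFP stands left of *At*BE3-YFP, and the dotted line separates the exon 1 locus from the exon 2 and 3 locus. Exon 1 is lower with *At*MKIP1-YFP, exon 2 is higher, and the long segment of intron 2 overlaps between baits.

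At the exon 1 locus the segment of exon 1 (69657 to 69743) had 258, 166 and 160 rpm with *At*MKIP1-YFP and 312, 276 and 743 rpm with *At*BE3-YFP. All *At*MKIP1-YFP libraries were lower, and *At*BE3-YFP replicate 3 was far above the others. The log2 fold change was -1.15 (SE 0.36, adjusted p = 0.0076 in edgeR's test). It was -0.61 without *At*BE3-YFP replicate 3 (adjusted p = 0.028 in edgeR's test), -1.05 with *At*MKIP1-YFP replicate 2 left out (0.019) and -1.04 with its replicate 3 left out (0.053), so that the call was lost without any of these.

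The 3 nt on each side of that segment were lower as well. At 69654 to 69656, inside exon 1, there were 136, 65.8 and 78.3 rpm with *At*MKIP1-YFP and 193, 256 and 409 rpm with *At*BE3-YFP (log2 fold change -1.62, SE 0.33, adjusted p = 0.00035 in edgeR's test). At 69744 to 69746, upstream of exon 1, there were 9.37, 37.6 and 26.1 rpm with *At*MKIP1-YFP and 62.3, 93.2 and 150 rpm with *At*BE3-YFP (-1.89, SE 0.41, adjusted p = 0.00062), from as few as 2 reads. In both, no library of one bait reached into the other bait's range. The segment at 69744 to 69746 passed the low-count filter through its *At*BE3-YFP libraries only. With no filter it stayed lower (adjusted p = 0.00062 in edgeR's test). The long segment downstream of exon 1, most of which lies outside the locus, had 2873, 2890 and 2656 rpm with *At*MKIP1-YFP and 3464, 3792 and 4107 rpm with *At*BE3-YFP, did not overlap, and missed the threshold (-0.43, SE 0.17, adjusted p = 0.024).

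Across both loci, 10 of 13 and 0 of 4 segments had every *At*MKIP1-YFP library above every *At*BE3-YFP library, where 74.5% of all 553 segments did. The reverse held for 2 of 13 and for 4 of 4, where it held for 17.9% of all 553.

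The genes next to each locus were lower or not called, with mapped reads as library size. The segment of *clpP* (69747 to 74239), a protease subunit gene directly upstream of exon 1, had 2230 to 2490 rpm with *At*MKIP1-YFP and 3920 to 3970 rpm with *At*BE3-YFP (log2 fold change -0.72, SE 0.16, adjusted p = 0.00087 in edgeR's test; 0 of the neighbours were called with no scaling). The segment of *ndhB* (86174 to 97452), an NDH complex subunit gene downstream of *rps7*, had 7040 to 7660 rpm with *At*MKIP1-YFP and 10600 to 14900 rpm with *At*BE3-YFP (-0.75, SE 0.19, adjusted p = 0.0020). A segment of 10 nt just downstream of *rps7* (97453 to 97462) did not pass (0.10, SE 0.22, adjusted p = 0.66). *rpl20*, for protein L20 of the large ribosomal subunit, lies in the same segment as the 5′ part of intron 1 and cannot be told apart from it.

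Among 20 plastid ribosomal protein genes, 3 had most of their nt in higher segments in the *At*MKIP1-YFP precipitates, 11 in lower segments, 5 in segments that did not pass, and *rps12* had no such majority. The median of their length-weighted mean log2 fold changes was -0.59. The 3 were *rpl2* (2.32), which has a group IIA intron, and *rpl23* (1.14) and *rps19* (1.03), which lie beside it. *rps12* came to 0.02, from 129 nt in higher, 71 nt in lower and 172 nt in other segments. *rps7* came to -0.42, next to *rps2* (-0.40) and *rpl20* (-0.43). Several of these genes share long segments and hence values. The 11 lower calls dropped to 0 with no scaling, and the 3 higher calls dropped to 0 with TMM factors.

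**Figure D5:**
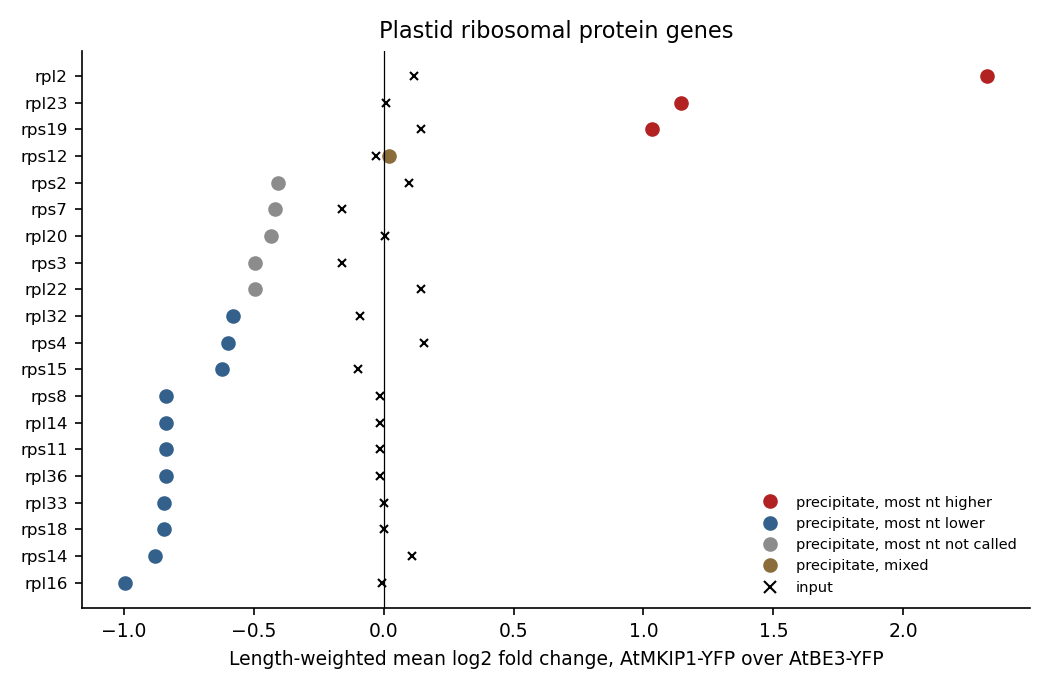
Length-weighted mean log2 fold change (*At*MKIP1-YFP over *At*BE3-YFP, mapped reads as library size) of 20 plastid ribosomal protein genes in the precipitates (circles, coloured by the call over most of the gene's nt) and in the inputs (crosses). *rps12* lies near 0 in the precipitates at 0.02, *rps7* at -0.42, and the inputs span -0.16 to 0.16.

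In the inputs the same RNAs did not differ detectably between the lines. Input segments have borders of their own and are long here, so precipitate and input values stand side by side without a test of their difference. Of the 4 member segments 0 were called and 0 had an unadjusted p under 0.05 (edgeR; 0 called by DESeq2), where 1.75% of all 572 segments were called. The segment with exon 1, the 5′ part of intron 1 and its neighbours (66534 to 70812) had 2145, 2572 and 2079 rpm in the *At*MKIP1-YFP inputs, against 2105, 2122 and 2542 rpm in those of *At*BE3-YFP. The groups overlapped, with a log2 fold change of 0.01 (SE 0.16, adjusted p = 0.99 in edgeR's test). In bulk seedlings, fewer cells of a type and less RNA per cell cannot be told apart.

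The input segment with *rps7*, exon 3, intron 2 and 138 nt of exon 2 (95089 to 98699), which extends into *ndhB*, had 454, 534 and 583 rpm with *At*MKIP1-YFP and 613, 521 and 623 rpm with *At*BE3-YFP (log2 fold change -0.16, SE 0.17, adjusted p = 0.70 in edgeR's test). The segment with 92 nt of exon 2 and the 3′ part of intron 1 (98702 to 109021) had 1475, 1891 and 1409 rpm with *At*MKIP1-YFP and 1237, 1321 and 1724 rpm with *At*BE3-YFP (0.16, SE 0.16, adjusted p = 0.69). Both overlapped between baits. Between them, 2 nt of exon 2 had 3.61, 6.17 and 6.62 rpm with *At*MKIP1-YFP and 5.47, 4.46 and 5.34 rpm with *At*BE3-YFP (0.12, adjusted p = 0.91).

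Within each input library, the log2 ratio of the segment with the 3′ part of intron 1 to the segment with exon 1 was -0.540, -0.444 and -0.561 with *At*MKIP1-YFP and -0.768, -0.684 and -0.560 with *At*BE3-YFP. The difference was 0.155, or 1.11-fold, and the groups overlapped (exact permutation test, p = 0.2, 0.286 adjusted over the 10 ratios; n = 3 each). The ratio of the segment with *rps7* to the segment with exon 1 differed by -0.169 and overlapped as well (exact permutation test, p = 0.3, 0.333 adjusted; n = 3 each). Other genes lie in these long segments, so that the input ratios are less specific to *rps12* than those of the precipitates.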

How the data were processed

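Per the paper's methods, the authors trimmed reads with Cutadapt, removed duplicates by molecular identifiers with UMI-tools and mapped with STAR, using the chloroplast genome of TAIR10 without the second inverted repeat. Splice gaps were allowed for lengths near those of plastid *cis* introns, so reads over the *trans* junction of exons 1 and 2 could not be aligned across it. Versions are not given in the sources used here. Input RNA was depleted of ribosomal RNA and fragmented, which is not described for precipitate RNA. The counts deposited are raw reads per strand and segment, with borders set by DiffSegR. The deposited numbers of mapped reads, which served as library size, are headed as deduplicated for the precipitates but not for the inputs. Deposited tables of the authors' own comparisons (log2 fold changes and p-values) were not used.

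Groups and replicate numbers came from the sample labels. Each table was fitted alone over all its segments, bait only, by the quasi-likelihood F test of edgeR 4.0.16 (R 4.3.3). Library sizes were the mapped reads, without a scaling factor. The default low-count filter asked for 15 reads in all and for a minimum rpm in at least 3 libraries. This minimum was the rpm of 10 reads at the median library size, so that single libraries could hold fewer reads. A segment low with either bait could thus enter through the libraries of the other bait. Without the filter, 9 members were still called higher and 3 lower in the precipitates. Calls were made at an adjusted p under 0.01 after Benjamini-Hochberg correction. The SE is the log2 fold change over the square root of F. For comparisons within libraries, the count of the exon 1 segment or, chosen after seeing the data, of the *rps7* segment replaced the library size. Ratios were compared by exact permutation over libraries. Alternatives used TMM factors, DESeq2 1.42.0, other library sizes, no filter, a replicate block and leaving out each library. Described by value in each library were the called members and, for each annotated part, the segment with most of its nt. The fits were also run on simulated data. Segments were drawn independently there, so shared reads and borders set on the bait contrast were not covered. Python 3.11.15 with pandas 2.3.3, numpy 2.4.6 and matplotlib 3.10.9 was used for the rest. The members and lists were chosen with earlier results of these data known. p-values measure the spread between seedling pools and, in the fits within libraries, also that of the reference count, which entered as a fixed library size. The noise of that count is common to all segments and was seen in 6 libraries, so p-values of these fits can be too small.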

Additional observations from a re-analysis of the deposited data

How the results depend on the processing

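The direction of the bait difference depended on the scaling of the precipitate libraries. Against 9 higher and 3 lower members with mapped reads, TMM factors gave 0 and 10, DESeq2's size factors 0 and 9, the summed segment counts as library size 3 and 6, no scaling 9 and 0, and libraries scaled on segments outside the MatK-associated loci 11 and 0. The cause was not tested, beyond the shift of the median of all segments from 2.06 to -0.082 with TMM factors, with 144 segments higher and 198 lower of all (DESeq2: median 0.088, 175 higher, 184 lower; no scaling: 1 lower; outside the MatK-associated loci: 16 lower). The median of the exon 2 and 3 locus was -0.81 with TMM factors and -0.61 with DESeq2. The scaling outside the MatK-associated loci left out most members, and *rpl23* and *rps19* too, so it is not independent of the enrichment in these data.

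Values that changed sign were as follows. With TMM factors the log2 fold change was -0.22 at 98183 to 98185, -2.06 at 98186 to 98664, -1.28 at 98665 to 98841, -0.29 at 98842 to 98845, -0.82 at 98846 to 98874, -0.45 at 98875 to 98881, -0.81 at 98882 to 98950, -0.074 at 98951 to 98953, -0.57 at 98954 to 99089, -0.34 at 99090 to 99096 and -1.50 at 99097 to 99569. With DESeq2 it was -1.88 at 98186 to 98664, -1.10 at 98665 to 98841, -0.12 at 98842 to 98845, -0.64 at 98846 to 98874, -0.26 at 98875 to 98881, -0.61 at 98882 to 98950, -0.37 at 98954 to 99089, -0.13 at 99090 to 99096 and -1.32 at 99097 to 99569. With the summed counts it was -0.63 at 98186 to 98664 and -0.073 at 99097 to 99569. Not called in either fit were 64579 to 69653, the *rps7* segment and 99570 to 109061, with 0.15, 0.22 and 0.039 under no scaling and 0.18, 0.19 and 0.069 with scaling outside the MatK-associated loci. The input segment with exon 1, 0.01 with mapped reads, was -0.065 with TMM factors, -0.047 with DESeq2 and -0.002 with summed counts, and -0.10 to 0.10 without single libraries, and the 2 nt input segment was -0.039 to 0.32.

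The comparison within libraries gave 8 to 11 higher and 0 lower of 13 segments under every alternative run, with a median of 1.75 against the segment downstream of exon 1 and 1.85 to 2.95 without single libraries. In its main fit 0 of all 552 segments were lower, so that this count is not particular to the locus. The difference of the exon 2 to exon 1 ratios ran from 1.41 to 2.48 without single libraries. Member calls ran from 8 to 10 higher and 2 to 3 lower without single libraries, and relative to *rps7* from 9 to 10. Of the ribosomal protein genes, 3 higher and 11 lower with mapped reads, 0 and 19 were called with TMM factors, 0 and 17 with DESeq2, 1 higher with summed counts, and 0 lower with no scaling and with scaling outside the MatK-associated loci. These ran from 2 to 3 higher and 8 to 12 lower without single libraries. Of the neighbours 0 were called with no scaling and with scaling outside the MatK-associated loci, and 1 to 3 without single libraries. The input called 0 members under every alternative.

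Same-numbered libraries of the baits did not deviate together (correlations of -0.117, 0.131 and -0.147 in the precipitates and 0.105, 0.0563 and -0.122 in the inputs), so the fits did not pair the baits by number. Whether a precipitate and an input of the same number deviate together was not tested. With the replicate block 9 members were higher and 3 lower, 9 of 13 were higher relative to exon 1 and 9 of 12 relative to *rps7*, and in the input 0 were called. Short segments rest on few reads, down to 1 read in a library, which limits their precision.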
